A study of Mus musculus with 6 samples.

Results

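The genes that make and load microRNAs were followed in C0321 mouse mammary tumors: Dgcr8, Drosha, Dicer1, Xpo5, Tarbp2, Ago1, Ago2, Ago3 and Ago4. They were 9 of the 13730 genes in the deposited count table, and they were found by gene symbol, with the transcripts of a symbol summed. The set was chosen by the measured difference of Dgcr8 between the treated and the control tumors, and the other 8 members were named by their function beside it. The difference of Dgcr8 is therefore given as a description with no test. The other members were tested.

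MicroRNAs are short RNAs that are cut out of hairpins in longer transcripts. In the nucleus, the Microprocessor, made of the RNase Drosha and the double-stranded RNA binding protein Dgcr8, releases the hairpin, which Exportin-5 (the product of Xpo5) carries to the cytoplasm. There Dicer, with its partner Tarbp2, cuts the hairpin to a duplex, and an Argonaute protein keeps 1 strand and silences the mRNAs that pair with it. Within the Microprocessor, the Dgcr8 protein stabilizes Drosha, and the Dgcr8 mRNA itself carries a hairpin that the Microprocessor can cut.

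The RNA came from bulk tumors of 6 female FVB mice, aged 6 to 10 weeks at injection, 3 control and 3 treated. Each mouse received 1000000 C0321 cells with Matrigel in the mammary fat pad. C0321 is a single triple-negative line that came from a mouse in which Lfng, a glycosyltransferase that modifies Notch receptors, had been conditionally knocked out, so both groups share that origin and an FVB host. From a palpable mass on, the treated mice (SS) were given sulindac sulfide, the active metabolite of the anti-inflammatory drug sulindac and a γ-secretase modulator, at 60 mg/kg by mouth daily for 14 days; the labels spell the agent "Sulindac Sulfate". The control mice received saline according to the series description and vehicle according to the paper. Each tumor is 1 mouse, and since the tumors of a group came from 1 line, the p-values measure the spread between these mice and not between independent cancers.

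Libraries of stranded polyadenylated RNA held 8468914 to 24441522 counts per tumor, and the levels below are CPM, counts per 1000000 counts of the library after scaling by the trimmed mean of M values (TMM). The labelled tumor type is called by pathology, as negative for the estrogen and progesterone receptors and for HER2 amplification, and not by RNA level. In the RNA, Esr1 was at 4.48 to 6.40 CPM, Pgr at 0.00 to 3.82 CPM and Erbb2 at 17.1 to 22.4 CPM. Of the epithelial markers, Krt8 was at 417 to 544 CPM, Krt18 at 59.5 to 98.1 CPM, Krt14 at 6.44 to 45.8 CPM, Krt5 at 0.00 to 73.1 CPM and Epcam at 0.0410 to 2.98 CPM. Lfng read 4.65 to 6.40 CPM over the 6 tumors, on a count per gene that cannot tell the deleted exons or the host cells apart. In a bulk tumor, fewer cells of a type and less RNA per cell cannot be told apart.

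The hairpin inside the Dgcr8 message was read from the RefSeq reference (GRCm38.p6). It is shown because the gene that chose the set carries a substrate of its own complex. Mir1306 lies at chr16:18284239-18284317 on the minus strand, in exon 2 of 14 of Dgcr8, within its coding part at coding bases 100 to 178. The capitals mark the mature strands miR-1306-5p and miR-1306-3p:
Mir1306: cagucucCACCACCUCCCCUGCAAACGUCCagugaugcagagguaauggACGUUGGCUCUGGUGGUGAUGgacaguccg
A second annotated microRNA hairpin, Gm24572, spans 88 bases of the same exon, 134 bases upstream of the coding start. Neither hairpin had a row of its own in the table, and reads of a hairpin that was cut out are too short for a library of this kind, so the counts of Dgcr8 are counts of its longer RNA.

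Dgcr8 mRNA stood at 157, 144 and 144 CPM in controls against 230.4, 235 and 209 CPM with SS. All 3 SS tumors were above all 3 controls, and the gap between the groups was wider than the range within either one. The means were 148 ± 7.44 CPM (SD, n = 3) and 225 ± 13.9 CPM (SD, n = 3), a ratio of 1.52. The edgeR log2 fold change was 0.60 (SE 0.096, 95% interval 0.38 to 0.82), from the contrast by which the set was chosen. The counts behind these levels were 1980, 2920 and 3502 in the controls and 3174, 1969 and 2470 in the SS tumors, for which counting error alone is 1.69% to 2.25% of the count. Of all genes tested, 6.51% were higher in every SS tumor than in every control.

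Drosha, the catalytic partner of Dgcr8, stood at 60.7, 82.0 and 81.3 CPM in controls against 81.8, 73.0 and 79.3 CPM with SS. The groups overlapped, and the lowest value was that of the first control tumor. Its log2 fold change was 0.06 (SE 0.14, 95% interval −0.27 to 0.39), with a p of 0.946 by the quasi-likelihood test of edgeR, adjusted by Benjamini-Hochberg over 10902 genes. Without the first control tumor the log2 fold change of Drosha was −0.07, so its direction rests on that library.

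Xpo5, the exporter of the hairpins, stood at 33.3, 35.7 and 36.2 CPM in controls against 39.8, 32.7 and 37.7 CPM with SS. The lowest and the highest value of this gene both belonged to SS tumors. The log2 fold change was 0.07 (SE 0.13, 95% interval −0.23 to 0.37), with an adjusted p of 0.938 in the same edgeR test.

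Dicer1, the cytoplasmic RNase, stood at 129, 131 and 114 CPM in controls against 127, 135 and 129 CPM with SS. The groups overlapped, with the third control tumor the lowest. Its log2 fold change was 0.06 (SE 0.098), and its 95% interval of −0.17 to 0.29 was among the narrowest of the 9 genes. The adjusted p was 0.932 in edgeR.

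Tarbp2, the double-stranded RNA binding partner of Dicer, stood at 24.2, 23.3 and 23.3 CPM in controls against 24.6, 22.2 and 20.0 CPM with SS. The controls lay within the range of the SS tumors. The log2 fold change was −0.08 (SE 0.15, 95% interval −0.42 to 0.25), with an adjusted p of 0.937 in edgeR. Of the 75-base windows of its transcript, 43.0% also occur in the pseudogenes Gm18561 and Gm18584, so the counting could have split or lost reads of Tarbp2 and its level is uncertain.

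The 4 Argonautes bind the finished microRNA. Ago2, the member with slicing activity, stood at 146, 135 and 191 CPM in controls against 136, 145 and 179 CPM with SS. The third tumor of each group was the highest of its group, and the groups covered nearly the same range. The log2 fold change was −0.04 (SE 0.16, adjusted p = 0.970 in edgeR), and it was 0.13 without the third control tumor, 0.04 without the first SS tumor and 7.64e-05 without the second.

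Ago1 stood at 166, 159 and 149 CPM in controls against 145, 152 and 153 CPM with SS. The values overlapped, with 2 of the 3 controls above every SS tumor. The log2 fold change was −0.07 with the smallest SE of the 9 genes, 0.092 (95% interval −0.29 to 0.14, adjusted p = 0.921 in edgeR).

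Ago3 stood at 43.7, 46.9 and 51.4 CPM in controls against 56.5, 41.9 and 41.9 CPM with SS. Here the first SS tumor was the highest of all 6 and the other 2 were the lowest. The log2 fold change was −0.02 (SE 0.15, adjusted p = 0.985 in edgeR), and its sign changed when the third control tumor (0.05), the second SS tumor (0.05) or the third SS tumor (0.05) was left out.

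Ago4 stood at 6.88, 5.75 and 6.07 CPM in controls against 7.48, 13.7 and 4.39 CPM with SS. The second SS tumor stood at 13.7 CPM, the third SS tumor was the lowest of all, and the groups overlapped. The counts were 52 to 148 per tumor, so counting error reached 13.9% in the third SS tumor. The log2 fold change was 0.44 (SE 0.40, 95% interval −0.48 to 1.37, adjusted p = 0.890 in edgeR), and it was −0.07 without the second SS tumor. That tumor also had the smallest total of the 6 and the highest Malat1 and Neat1, 2 RNAs that stay in the nucleus, at 4626 and 13.7 CPM. Whether these have a part in its Ago4 level was not tested.

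**Figure D1:**
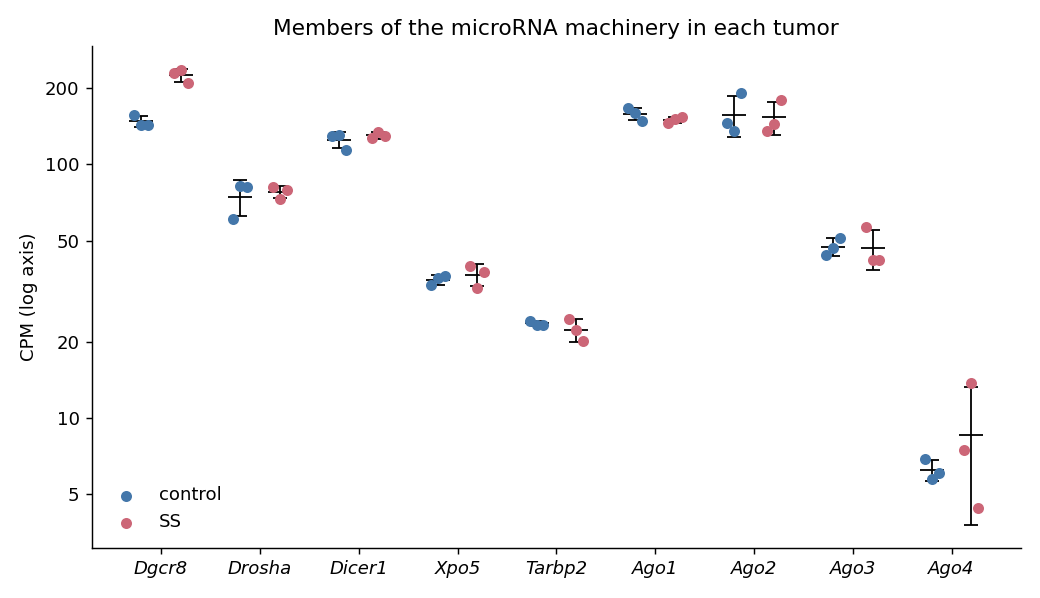
CPM of each member on a log axis, with 1 point per tumor (blue, control; red, SS) and the mean ± SD of each group (n = 3) in black. The SS points of Dgcr8, at 209 to 235 CPM, lie above its controls at 144 to 157 CPM, and in every other member the points of the groups overlap.

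Across the members, then, 1 of 9 had groups that did not overlap, and it was the gene that chose the set. The groups overlapped in the other 8, where 12.9% of all genes tested did not overlap in one direction or the other. Of the 8, 4 had a log2 fold change above 0 and 4 below, with a median of 0.02 beside a median of −0.0013 over all genes tested. None of the 8 passed an adjusted p of 0.05 in edgeR (0.890 to 0.985), and none had an unadjusted p under 0.05, where 6.36% of all genes tested (693 of 10902) had one. No gene of the 10902 passed the adjusted threshold in edgeR (0.0%), and DESeq2, run as an alternative, called 37 of 12638 genes (0.293%) and none of the 8, whose smallest adjusted p there was 0.999.

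The precision differed between the members, and it limits what the absence of a call says. For 7 of the 8, all but Ago4, the upper end of the 95% interval was at most 0.39, and the lower end was at least −0.42. These upper ends lie below the log2 fold change of Dgcr8 (0.60), but that value chose the set. The interval of Dgcr8 itself begins at 0.38, so the intervals are not all apart. The interval of Ago4 included differences larger than that of Dgcr8. In 7 of the 8, the absolute log2 fold change was under 0.1, which held for 28.4% of all genes tested, and the median absolute value of the 8 was 0.065 against 0.192 over all genes tested. These values over all genes were not matched to the level of the members, so they do not show that the members were unusually stable.

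**Figure D2:**
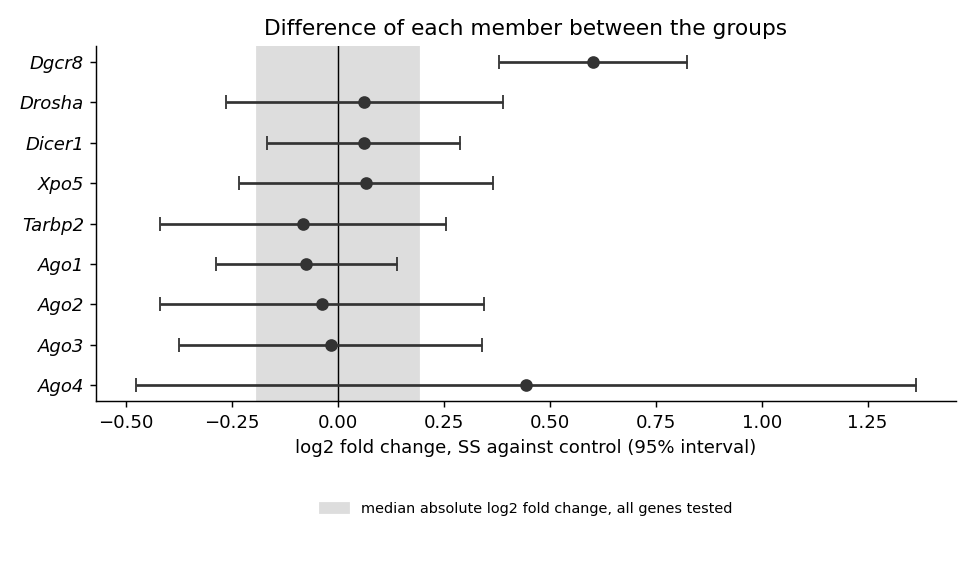
Log2 fold change of each member between the SS and the control tumors, with its 95% interval from edgeR (3 tumors per group). The grey band runs from minus to plus the median absolute log2 fold change of all genes tested, 0.192. Dgcr8, at 0.60, was chosen by this contrast and is shown as a description, and the other 8 lie between −0.08 and 0.44.

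A ratio of 2 genes within a tumor does not depend on how the libraries are scaled, so the ratio of Dgcr8 to each partner was taken in every tumor. There were 2.58, 1.75 and 1.77 Dgcr8 counts per Drosha count in controls against 2.82, 3.22 and 2.63 with SS. The highest control, the tumor with the low Drosha value, came close to the lowest SS tumor without reaching it. Per Dicer1 count there were 1.21, 1.10 and 1.26 Dgcr8 counts in controls against 1.82, 1.74 and 1.62 with SS, a wider gap. The mean ratio to Tarbp2 was 6.27 ± 0.178 (SD, n = 3) in the controls and 10.1 ± 0.664 (SD, n = 3) in the SS tumors.

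The ratio of Dgcr8 to Ago1 was 0.936 ± 0.0339 (SD, n = 3) in the controls and 1.5 ± 0.12 (SD, n = 3) in the SS tumors, so that Ago1 counts, which also depend on the length of its transcripts, outnumbered Dgcr8 counts in every control tumor and were outnumbered in every SS tumor. In all, 7 of the 8 ratios were higher in every SS tumor than in every control. The exception was the ratio to Ago4, at 22.8, 25.0 and 23.7 in the controls and 30.8, 17.1 and 47.5 in the SS tumors. These ratios share the Dgcr8 counts that chose the set and are not separate evidence.

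**Figure D3:**
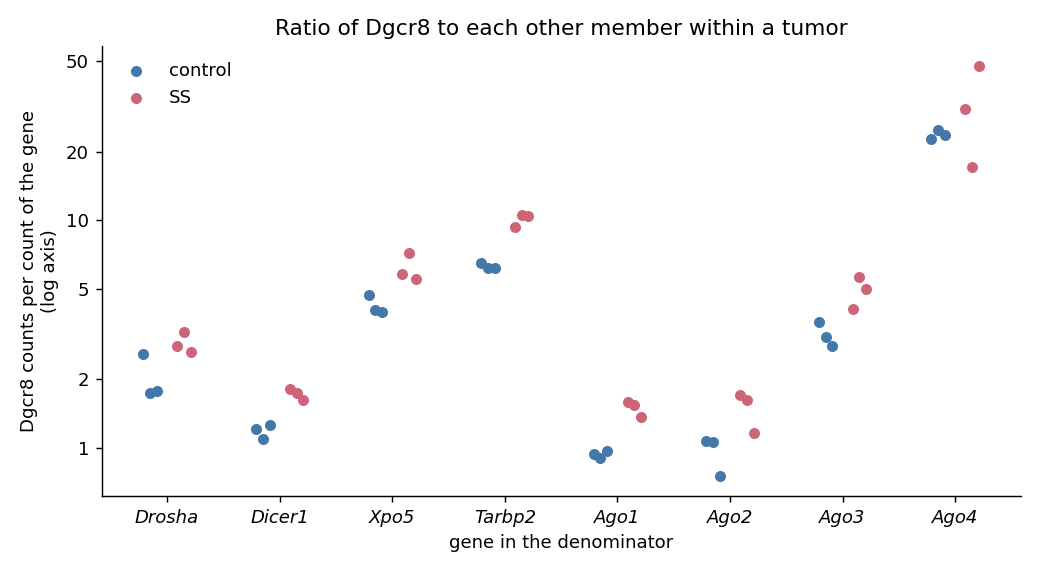
Counts of Dgcr8 per count of each other member within the same tumor, on a log axis (blue, control; red, SS; 3 tumors each). The SS points lie above the control points for 7 of the 8 denominators, and for Ago4 the second SS tumor, at 17.1, lies below all controls.

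The order of the levels was read per length, as CPM per kilobase of exon inside the deposited span of each transcript. By the mean over the 6 tumors Dgcr8 was the highest, at 34.0 to 55.6 CPM per kilobase, followed by Ago1 at 25.7 to 49.6, and these overlapped. That mean includes the group difference of Dgcr8 that chose the set. In the control tumors Ago1 was at 28.4, 49.6 and 33.4 CPM per kilobase and Dgcr8 at 37.0, 33.96 and 34.0, so Dgcr8 was above Ago1 in 2 of 3. The control means were in the other order, 37.1 ± 11.1 for Ago1 and 35.0 ± 1.76 for Dgcr8 (SD, n = 3). In the SS tumors Dgcr8 was at 53.2 ± 3.30 and Ago1 at 31.0 ± 5.41 CPM per kilobase (SD, n = 3). The high Ago1 value of the second control tumor came with its high count of the transcript of 1662 bases described further on. Next came Ago2 at 16.8 to 23.8 CPM per kilobase, Drosha at 13.3 to 18.0, Tarbp2 at 13.2 to 16.2 and Dicer1 at 11.6 to 13.7, each overlapping its neighbour in the order. Below them lay Xpo5 at 8.81 to 10.7 CPM per kilobase, Ago3 at 5.49 to 7.40 and Ago4 at 0.674 to 2.10, none of which overlapped its neighbour. Per length, then, Dgcr8 was above Drosha in every tumor, and Ago4 was below all other Argonautes. The table's spans of Ago2, Ago3 and Xpo5 held 8019, 7636 and 3710 exon bases of reference transcripts of 13800, 15595 and 5081 bases, so the levels per length of these 3 depend on the transcript ends the authors used.

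The members also differed in spread. Within the control tumors, the coefficient of variation was 2.16% for Tarbp2, 4.49% for Xpo5 and 5.03% for Dgcr8, and it was 16.2% for Drosha and 18.7% for Ago2. Within the SS tumors it ran from 2.75% for Ago1 to 55.7% for Ago4. Over all 6 tumors, the standard deviation of log2 CPM ran from 0.070 for Ago1 to 0.54 for Ago4, beside a median of 0.22 over the 6057 genes in the same range of levels. That of Dgcr8, 0.34, includes the group difference that chose the set.

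The table held 12 transcripts of the 9 genes, and 7 genes had a single one. Dgcr8 had 1 row, although the GENCODE annotation of the same build lists 10 transcripts of the gene, 4 of them with a retained intron, so a change of isoform could not be seen. Drosha had 2 rows. In the control tumors 48.9% of its counts were given to the first (NM_001130149), and in the SS tumors 44.7%, 48.9% and 46.4%. In the first SS tumor the share of the second row (NM_026799) was the largest, and the other 2 SS tumors lay near the controls or between. Both rows match the same transcript of 4570 bases in the reference used here, so their split is not read as a change of isoform.

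Ago1 had 3 rows, of which NM_001317173 and NM_153403 had identical values in all 6 tumors. The third, NM_001317174, which ends early in the reference at 1662 bases, stood at 11.6, 59.3 and 27.7 CPM in controls against 23.0, 10.2 and 33.0 CPM with SS. It took from 6.75% of the Ago1 counts in the second SS tumor to 37.2% in the second control tumor, a spread that was wider within the controls than the distance between the group means. Its log2 fold change was −0.58 (SE 0.64, adjusted p = 0.976 in edgeR over 15132 transcripts). None of the 11 transcripts of the other 8 members had an unadjusted p under 0.05, where 5.58% of all transcripts tested had one.

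Other genes could lend reads to a member. Dgcr8 overlaps the 3′ end of Trmt2a, a tRNA methyltransferase gene on the opposite strand, and 17.7% of the 75-base windows of its transcript occur there. Trmt2a stood at 4.43, 7.27 and 3.57 CPM in controls against 6.10, 5.72 and 4.39 CPM with SS, with fewer counts than Dgcr8 in every tumor, and its groups overlapped (log2 fold change 0.09, SE 0.34). A further 6.43% of the windows occur in models on the same strand, such as Gm49776 and the hairpins. Ago1 shares 1.33% of its windows with Ago3, its neighbour on chromosome 4, and Drosha, Dicer1, Xpo5 and Ago4 share none. The spans of Drosha and Xpo5 each hold an annotated microRNA gene, Gm47288 and Mir693, without a row of its own. Whether the counting used the strand is not given in the sources used here.

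Dgcr8 lies on the minus strand of chromosome 16, at 18253965 to 18289169 in the table, in the mouse counterpart of the region deleted in DiGeorge syndrome, after which it is named. Of the genes of the table within 250 kb of it, 8 are described here, and all 8 were tested. Their log2 fold changes ran from −0.55 to 0.23 with a median of −0.05, 4 above 0 and 4 below. All 8 lay below the 0.60 of Dgcr8, which chose the set, so the comparison is a description. Zdhhc8, a palmitoyltransferase gene, was lower in every SS tumor (17.7, 18.6 and 21.4 CPM) than in every control (27.6, 23.99 and 29.2 CPM), with a log2 fold change of −0.49 (SE 0.16, edgeR adjusted p = 0.771). It was the only one of the 8 with an unadjusted p under 0.05 or with groups that did not overlap, where 6.36% and 12.9% of all genes tested did so.

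The other 7 neighbours overlapped between the groups. Just downstream of Dgcr8, Ranbp1, a cofactor of the Ran GTPase, had a log2 fold change of −0.16 (SE 0.19) and Trmt2a one of 0.09. Upstream, Tango2 was at 0.06 (SE 0.51), Arvcf, a catenin, at −0.14 (SE 0.28) and Txnrd2, a mitochondrial thioredoxin reductase, at −0.55 (SE 0.39). Farther downstream, the proline dehydrogenase gene Prodh was at 0.04 (SE 0.43) and Dgcr6 at 0.23 (SE 0.23). The intervals of 4 of the 8 reached past the log2 fold change of Dgcr8, so a difference of that size cannot be set aside for them at this depth.

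**Figure D4:**
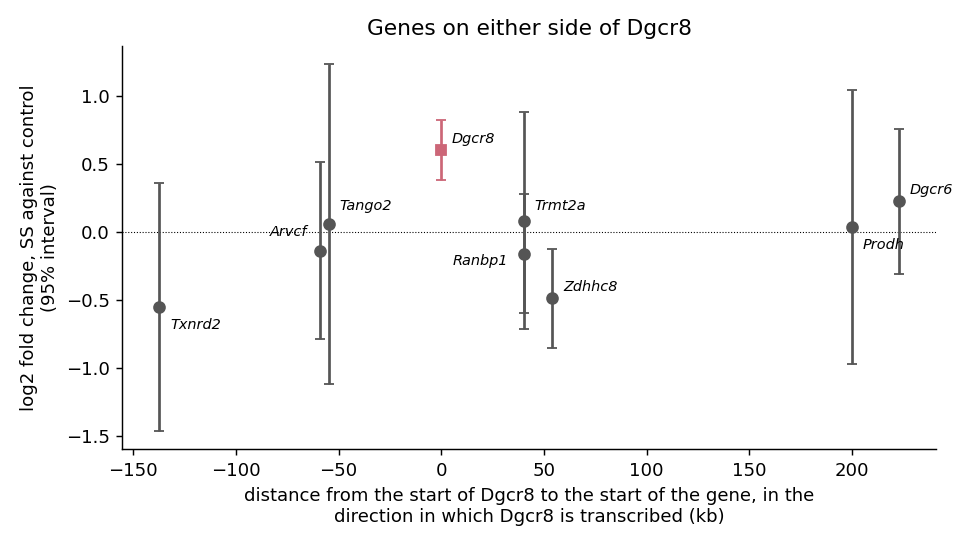
Log2 fold change between the SS and the control tumors, with its 95% interval from edgeR, for Dgcr8 (red square) and 8 genes within 250 kb, against the distance in kb from the start of Dgcr8 to the start of the gene, positive in the direction in which Dgcr8 is transcribed. Dgcr8 is at 0.60, and the 8 neighbours lie between −0.55 and 0.23.

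The 5 lists of further genes of the pathway held 72 genes, of which 71 were in the table and 68 were tested. Of these, 34 were higher in the SS tumors and 34 lower, with a median log2 fold change of 0.0015 and a range from −0.86 to 0.46. That range ends below the value of Dgcr8, which chose the set, so the comparison is a description. None of the 68 passed the adjusted threshold in edgeR (smallest adjusted p = 0.679). An unadjusted p under 0.05 was reached by 7 of 68 (10.3%), 4 higher and 3 lower, beside 6.36% of all genes tested. The lists were chosen with earlier results of these data known, so no excess is read from these shares.

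Of the 15 cofactors of the Microprocessor, all tested, 11 were higher and 4 lower in the SS tumors, with a median log2 fold change of 0.08. Hnrnpa2b1, a reader of methylated RNA that can bring primary transcripts to the Microprocessor, stood at 957, 951 and 885 CPM in controls against 1238, 1048 and 1092 CPM with SS. Srrt (Ars2), which links the cap-binding complex to the Microprocessor, was at 54.9, 51.4 and 45.0 CPM in controls against 63.4, 57.7 and 63.8 CPM with SS. In both genes all SS tumors were above all controls, but the log2 fold changes of 0.27 (SE 0.10) and 0.29 (SE 0.12) each had an adjusted p of 0.771 in edgeR. At the other end lay Khsrp, a splicing regulator that binds hairpin loops, at −0.19 (SE 0.12), and the RNA methyltransferase gene Mettl3 at −0.14 (SE 0.19), with groups that overlapped.

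Of the 5 partners of nuclear export, 2 were higher and 3 lower. Xpo1, the main exporter of proteins and of some RNAs, stood at 235, 249 and 236 CPM in controls against 215, 208 and 191 CPM with SS. Every SS tumor was below every control, at a log2 fold change of −0.23 (SE 0.091, edgeR adjusted p = 0.771). The Ran GTPase gene Ran was at 0.16 (SE 0.11) and the activator of its hydrolysis, Rangap1, at 0.13 (SE 0.23), while its exchange factor Rcc1 was at −0.36 (SE 0.22), and the groups of these 3 overlapped.

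Of the 8 genes for loading of Argonaute, 1 was higher and 7 lower, with a median log2 fold change of −0.10. Under quantile normalization all 8 were lower. Hsp90aa1, a chaperone that holds Argonaute open for the duplex, stood at 439, 473 and 523 CPM in controls against 399, 348 and 416 CPM with SS. These groups did not overlap, and the log2 fold change was −0.30 (SE 0.11, edgeR adjusted p = 0.771). Hsp90ab1 was also lower in every SS tumor than in every control, at −0.17 (SE 0.095, edgeR adjusted p = 0.813). No gene of this list was higher without overlap. The co-chaperone Stip1 (−0.07, SE 0.13) and the constitutive Hspa8 (0.03, SE 0.094) were nearer to 0, and the Dicer partner Prkra was at −0.21 (SE 0.22).

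Silencing by an Argonaute runs through GW182 proteins, deadenylases and decapping. Of 28 such genes, 27 were tested, 16 higher and 11 lower, with a median log2 fold change of 0.04. The one with the largest difference was Pan2, the catalytic subunit of a poly(A) nuclease, at 50.9, 48.7 and 50.8 CPM in controls against 72.6, 67.2 and 66.3 CPM with SS. The groups were well apart, at a log2 fold change of 0.46 (SE 0.102, 95% interval 0.22 to 0.69), but the adjusted p was 0.679 in edgeR. Eif4enif1 (4E-T), which ties the deadenylated message to decapping, was at 22.4, 27.0 and 24.1 CPM in controls against 31.3, 35.1 and 31.5 CPM with SS, with no overlap (log2 fold change 0.41, SE 0.14, edgeR adjusted p = 0.771).

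On the other side stood Pabpc1, the poly(A) binding protein, whose log2 fold change was −0.28 (SE 0.12, edgeR adjusted p = 0.771). It stood at 9888, 11022 and 13048 CPM in controls against 8920, 9125 and 9936 CPM with SS, where the highest SS tumor was just above the lowest control. Cnot11, a subunit of the CCR4-NOT deadenylase, was at −0.25 (SE 0.23). Of the genes for tailing, editing and turnover of microRNAs, 13 of 16 were tested, 4 higher and 9 lower, and none had an unadjusted p under 0.05. They included Dis3l2, the nuclease that degrades uridylated let-7 precursors, at 0.28 (SE 0.15), the deaminase gene Adar at 0.22 (SE 0.21), the deadenylase gene Parn at −0.18 (SE 0.26) and Zc3h12a, an RNase, at −0.86 (SE 0.61) from a level of 0.507 to 2.09 CPM.

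**Figure D5:**
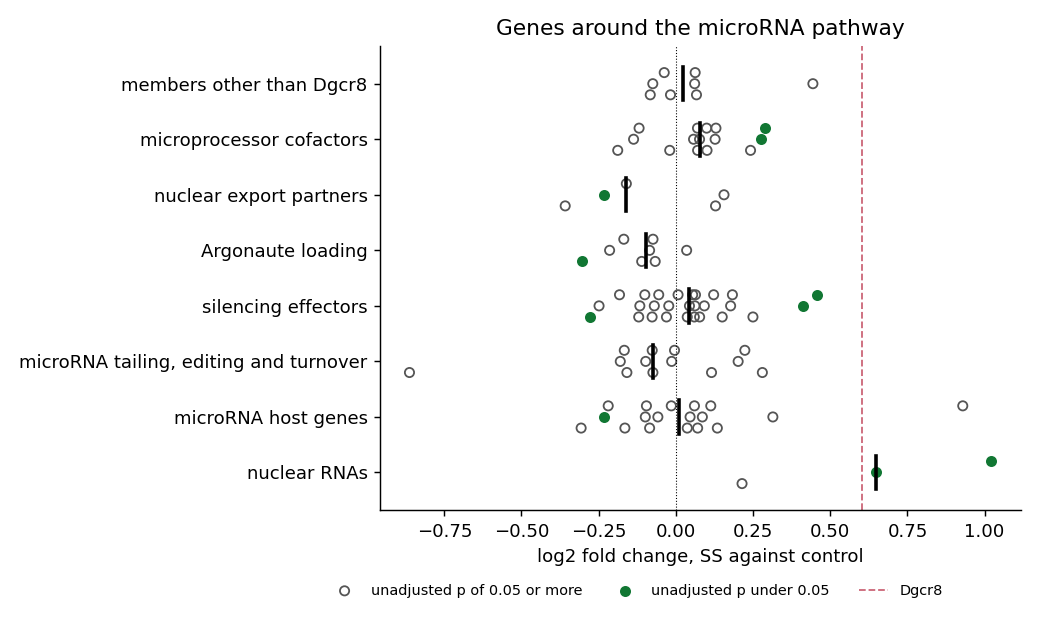
Log2 fold change between the SS and the control tumors for the tested genes of each list, 1 circle per gene, spread vertically for sight, with the median of the list as a black bar. Filled circles have an unadjusted p under 0.05, and none passed the adjusted threshold. The dashed line marks the value of Dgcr8 (0.60), which chose the set. No gene of the first 6 lists from the top lies to the right of it.

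These libraries do not hold mature microRNAs, and primary microRNA transcripts were not measured as such. Counts of the genes that host microRNAs are given in their place. Among genes that carry a microRNA in an intron or exon, 18 of 22 were tested, 9 higher and 9 lower, with a median log2 fold change of 0.01 (−0.03 under quantile normalization). Copz1, a coatomer subunit gene that hosts a microRNA, stood at 87.0, 80.4 and 85.2 CPM in controls against 75.1, 69.0 and 70.7 CPM with SS. Its groups did not overlap (log2 fold change −0.23, SE 0.099, edgeR adjusted p = 0.771). The groups of Dnm3 (0.93, SE 0.83), Evl (0.31, SE 0.18) and Pank1 (−0.31, SE 0.24) overlapped. These are counts of spliced host mRNA, which need not follow the primary transcript.

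Among the rows of the table, 6 were named for a microRNA, and 2 of them, Mir22hg and Mir17hg, had enough counts to be tested. Mir22hg had 17, 8 and 42 counts in controls against 22, 8 and 10 with SS. Its log2 fold change was −0.02 (SE 0.65, edgeR adjusted p = 0.996). Mir17hg had 17, 3 and 8 counts in the controls and 15, 10 and 9 in the SS tumors, at a log2 fold change of 0.79 (SE 0.82, edgeR adjusted p = 0.907). The other 4 rows, Mir124a-1hg, Mir6236, Mir6516 and Mir8094, had 0 to 15 counts per tumor and were not tested.

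The hairpins inside the spans of the 2 tested rows were Mir22 and, of the 6 hairpins of the Mir17 cluster, 1, Mir92-1. The deposited row of Mir17hg begins within the last bases of Mir19b-1, and the other hairpins lie before it. The mature sequences of Mir22, Mir92-1 and Mir1306 are given from RefSeq with the seed (bases 2 to 8) in capitals, to show which microRNAs the host counts refer to:
miR-22-5p: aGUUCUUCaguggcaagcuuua
miR-22-3p: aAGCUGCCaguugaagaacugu
miR-92a-1-5p: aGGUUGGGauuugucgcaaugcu
miR-92a-3p: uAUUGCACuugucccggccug
miR-1306-5p: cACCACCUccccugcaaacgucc
miR-1306-3p: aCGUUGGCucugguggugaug
All 6 seeds differ, so none of these microRNAs shares a seed with another.

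The levels of nuclear RNAs and cell type markers are given beside the Dgcr8 value, and none of these genes passed the adjusted threshold in edgeR. Of 6 RNAs that stay in the nucleus, 3 were tested and all 3 were higher in the SS tumors under TMM, RLE, upper-quartile and quantile scaling. Rn45s, the precursor of ribosomal RNA, stood at 127, 90.7 and 89.7 CPM in controls against 195, 242 and 187 CPM with SS (log2 fold change 1.02, SE 0.17, edgeR adjusted p = 0.679). Neat1 was at 7.51, 6.73 and 6.32 CPM in controls against 8.78, 13.7 and 9.80 CPM with SS (0.65, SE 0.24, edgeR adjusted p = 0.771), and Malat1 overlapped (0.21, SE 0.14). The part of these RNAs in the Dgcr8 value was not tested.

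Of the 3 markers of red cells, all had a log2 fold change below 0, from −0.73 for Hbb-bs to −1.96 for Alas2 (smallest adjusted p = 0.771 in edgeR), though the groups overlapped in Hba-a1 and Hbb-bs. Their summed level was 2118, 878 and 974 CPM in controls against 429, 953 and 686 CPM with SS, where the groups overlapped and the first control tumor was the highest. The summed adipocyte markers were at 0.0410 to 45.2 CPM in the controls and 0.676 to 19.2 CPM in the SS tumors, leukocyte markers at 68.1 to 124 and 81.8 to 102 CPM, and endothelial markers at 22.6 to 35.5 and 26.6 to 48.1 CPM, with overlap in each. Epithelial markers summed to 505 to 695 and 488 to 603 CPM, a sum made up mostly of Krt8. Among them Krt18 stood at 91.8, 98.1 and 80.4 CPM in controls against 69.96, 59.5 and 61.9 CPM with SS, without overlap (log2 fold change −0.50, SE 0.12, edgeR adjusted p = 0.760). The groups of the other 4 overlapped, at log2 fold changes of 2.2 for Epcam (SE 1.25), −0.10 for Krt8 (SE 0.12), −0.08 for Krt14 (SE 0.74) and −0.30 for Krt5 (SE 1.69). The median of the epithelial list was −0.10, with 1 of 5 higher, and 0.08 with 3 of 5 higher under quantile normalization. The median of the 2 adipocyte markers tested was −0.29, and 0.58 under quantile normalization. The markers of hormone receptors and HER2 summed to 25.0 to 30.5 and 23.4 to 26.9 CPM, and those of fibroblasts to 9584 to 14518 and 7060 to 14236 CPM. The fibroblast sum was nearly all Col1a1, at a log2 fold change of −0.10 (SE 0.26), while Pdgfra was at −0.65 (SE 0.35). Within the leukocyte sum, Adgre1 was at 0.50 (SE 0.24), Ptprc at 0.20 (SE 0.17), Cd68 at 0.15 (SE 0.31) and Cd3e at −0.82 (SE 0.75). The groups of each of these genes overlapped. The part of the markers in the values of the members was not tested.

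The genes most like Dgcr8 over the 6 tumors, by Pearson's r of log2 CPM, were Sema4a (0.995), Msh5 (0.990), Mis12 (0.989), Daglb (0.989) and Klc1 (0.986). In all 5 the SS tumors were above the controls, which is what the measure selects in these 6 points. Klc1, a kinesin light chain gene, had means of 70.0 and 109 CPM and Sema4a, a semaphorin, had means of 31.2 and 46.3 CPM. None of the 8 other members was among the 32 of 10901 genes with r above 0.95, and their r ran from −0.52 for Ago1 to 0.49 for Dicer1. After the mean of each group was taken off, the 5 most similar genes were others (Nckipsd, Ptn, Pter, Slc35f3 and Rasef, r of 0.995 to 0.998) and 129 genes passed 0.95. The r of the 8 other members then ran from −0.69 for Drosha to 0.80 for Ago4, with Tarbp2 at 0.72 and Ago2 at −0.60. These points share their libraries, and the correlations are given as a description.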

How the data were processed

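The authors extracted RNA from the 6 tumors, made stranded mRNA libraries, sequenced them in pairs of 75 bases and deposited estimated counts per RefSeq transcript, without normalization and without rows of low counts (smallest row sum 10). The submitters' processing notes name CASAVA 1.8.1, Bowtie2 2.2.5, STAR 2.5.3a and mm10. For this report, counts were summed by symbol (21 symbols altered to dates were restored) and rounded. Both groups were compared in edgeR 4.0.16 (R 4.3.3, TMM, filterByExpr, quasi-likelihood test, Benjamini-Hochberg over 10902 genes). In simulated counts for 10612 genes it called 34.0% of genes changed by 1 log2 unit and 71.4% of those changed by 2 log2 units. Intervals for levels were not given, and counting error covers counting only. Members and lists were chosen with earlier results of these data known. Genes named from each list were the 2 highest and 2 lowest by log2 fold change, and any with an unadjusted p under 0.05. Windows and lengths used GENCODE M21. Alternatives were RLE and upper-quartile scaling, DESeq2 1.42.0, limma 3.58.1 (voom, and quantile normalization of log2(CPM + 1)), 2 other filters, a replicate block, leaving out each tumor and thinning. The study's methods used quantile normalization and a t statistic, for which edgeR stood in because the values were counts. A gene near Dgcr8 is not reported here.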

Additional observations from a re-analysis of the deposited data

How the results depend on the processing

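Over 15 alternatives, 1 of them (counts thinned to the smallest total) chosen after seeing the data, the log2 fold change of Dgcr8 ran from 0.57 to 0.65, and none of the other 8 members passed an adjusted p of 0.05. The count of genes past that threshold was 0 in edgeR and 0 under 14 alternatives, and 37 under DESeq2, whose cause was not tested. The median log2 fold change of the 9 members was 0.06, and −0.04 to 0.09 when a tumor was left out, a range wider than its distance from 0. This median includes Dgcr8, which chose the set, and the median of the other 8 was 0.02 in edgeR. Leaving out 1 tumor at a time gave −0.066 to 0.14 for Drosha, −0.17 to 0.13 for Ago2, −0.18 to 0.054 for Ago3 and −0.068 to 0.76 for Ago4, so these 4 changed sign, and thinning turned Ago3 to 0.068. The other 4 kept their sign over wide ranges, 0.0038 to 0.097 for Dicer1, 0.0031 to 0.14 for Xpo5, −0.16 to −0.014 for Tarbp2 and −0.12 to −0.038 for Ago1. Ago4, at 0.44 in edgeR, was at 0.25 under limma-voom, 0.27 under quantile normalization and 0.25 after thinning. The numbers 1 to 3 in the labels belong to different mice, and the correlations of the deviations of equally numbered tumors were 0.12, 0.021 and 0.077, so they were not taken as pairs; with the number as a replicate block the log2 fold change of Dgcr8 was 0.60, the median of the members 0.06 and the count of genes 0. Of the members, Ago4 had the fewest counts, 52 to 148 per tumor.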
